A study of Mus musculus with 12 samples.

Results

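The data are the transcripts of 10 genes in mouse liver RNA-Seq libraries. They encode 8 nuclear receptors of lipid, bile acid, and drug metabolism and the 2 PGC-1 coactivators, and they were found by symbol among the 22456 genes of the expression table. The receptors are Ppara, Ppard, and Pparg (the PPAR family of fatty acid receptors), Rxra (the shared dimer partner RXRα), Esrra (the orphan receptor ERRα), Nr1h3 (the oxysterol receptor LXRα), Nr1h4 (the bile acid receptor FXR), and Nr1i3 (the xenobiotic receptor CAR). The coactivators are Ppargc1a (PGC-1α) and Ppargc1b (PGC-1β). All 10 were present in the table and all 10 passed the filter on low values. The 12 libraries come from livers of chow-fed male BALB/cByJ mice aged 2 to 8 months and form 4 groups of 3: fasted Lpin1+/+, refed Lpin1+/+, fasted Lpin1-/-, and refed Lpin1-/- liver. Lpin1-/- mice carry the germline fatty liver dystrophy (fld) mutation, and Lpin1+/+ mice were their wild-type littermates. Fasting lasted 16 hours overnight with mice caged singly, and refeeding lasted 5 hours after the same fast, so feeding state and time of day cannot be told apart.

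Nuclear receptors are transcription factors. Many of them bind DNA as dimers with an RXR and change the transcription of nearby genes when a ligand binds. In liver, PPARα drives fatty acid oxidation and ketogenesis in fasting, LXRα drives lipogenesis and sterol export, FXR limits bile acid synthesis and promotes bile acid export, and CAR induces drug-metabolizing enzymes. PGC-1α and PGC-1β do not bind DNA themselves. They are recruited by PPARα, ERRα, and other factors to increase mitochondrial gene expression, and PGC-1α also increases gluconeogenic gene expression. Lipin 1, the product of Lpin1, is an enzyme of triglyceride synthesis and is also known as a nuclear partner of PGC-1α and PPARα.

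Lpin1 itself was between 0.726 and 22.0 RPKM (reads normalized to transcript length and library depth) in the 6 Lpin1+/+ libraries and at most 0.0597 RPKM in the 6 Lpin1-/- libraries, so the libraries follow their labels. Fasted Lpin1+/+ replicate 1 stood apart from the other fasted Lpin1+/+ libraries, with Lpin1 at 22.0 RPKM against 0.726 and 1.76 RPKM, and also with the highest Ppara, Ppard, Ppargc1a, Ppargc1b, and Rxra of its group. The steps between low RPKM values put the deepest library at 1.34 times the depth of the shallowest. The 8 hepatocyte markers summed to between 32707 and 76228 RPKM in every library, and the 5 adipocyte markers to at most 0.321 RPKM. Summed Kupffer cell markers were at 159 to 333 RPKM in fasted Lpin1+/+ and 310 to 828 RPKM in fasted Lpin1-/- liver, and summed stellate cell markers at 68.5 to 160 and 202 to 292 RPKM. A refed Lpin1+/+ library had Kupffer cell markers at 742 RPKM, where the group's median was 151 RPKM. A fasted Lpin1-/- library had cholangiocyte markers at 451 RPKM, where the fasted Lpin1+/+ libraries had 32.1 to 45.8 RPKM. Their part in the results was not tested. These are whole livers, so fewer cells of a type and less RNA per cell cannot be told apart.

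RPKM is per length of transcript, so levels can be set beside each other. By the median over the 12 libraries, the order was Nr1h3 at 95.0 RPKM, Nr1i3 at 77.8, Rxra at 50.6, Nr1h4 at 49.6, Esrra at 25.4, Ppara at 12.7, Pparg at 3.13, Ppard at 2.67, Ppargc1a at 1.33, and Ppargc1b at 0.763 RPKM. Only the step from Ppara to Pparg had no overlap, with all 12 libraries of Ppara between 8.57 and 36.6 RPKM and all 12 of Pparg between 1.64 and 5.75 RPKM. Every other pair of neighbors overlapped in range. Ppargc1a was the most variable of the 10 across libraries, with a highest value 19.9 times the lowest for Ppargc1a, against 3.01 times for Ppard.

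**Figure D1:**
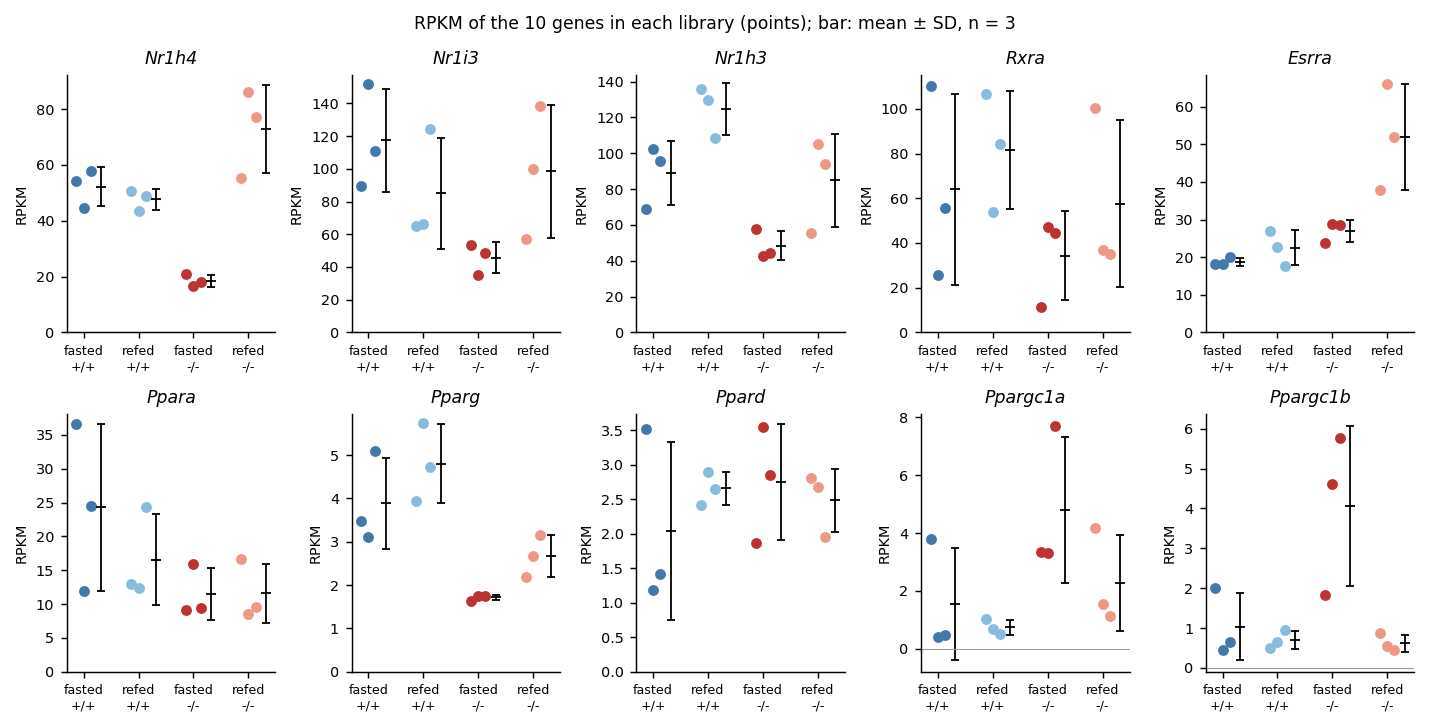
RPKM (vertical axes, linear, one scale per gene) of each of the 10 genes in the 12 libraries, by group. Points are libraries and bars give the mean ± SD of 3. Nr1h4 lies between 16.5 and 20.8 RPKM in fasted Lpin1-/- liver and at 43.6 RPKM or more in the other 9 libraries.

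Loss of Lpin1 in the fasted state changed 5 of the 10 genes. Nr1h4, Nr1i3, Nr1h3, and Pparg were lower and Ppargc1b was higher in fasted Lpin1-/- than in fasted Lpin1+/+ liver (limma on log2(RPKM + 1), Benjamini-Hochberg adjusted over 11507 genes, threshold 0.05). Of all genes tested, 18.8% passed in this comparison, 13.2% lower and 5.63% higher. The median difference of the 10 genes was -0.84 on the log2 scale, against -0.14 for all genes. When each library was rescaled by its median ratio, which moved the median of all genes from -0.14 to 0.01, the decreases of Nr1h4 and Pparg and the increase of Ppargc1b held, Nr1h3 (adjusted p = 0.177) and Nr1i3 (adjusted p = 0.0977) did not pass, and Ppargc1a (adjusted p = 0.0287) and Esrra (adjusted p = 0.0457) passed as higher. Among 26 other nuclear receptors tested, 4 passed as lower and 0 as higher in the same fit.

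Nr1h4, the bile acid receptor FXR, had the largest decrease of the 10. It was at 54.3, 44.4, and 57.9 RPKM in fasted Lpin1+/+ liver and at 20.8, 16.5, and 17.9 RPKM in fasted Lpin1-/- liver. The groups did not overlap, and the knockout mean was 0.352 times the wild-type mean. The fitted difference was -1.45 ± 0.19 on the log2 scale (SE; adjusted p = 0.000836 by limma). It passed under all 18 alternatives tried, with adjusted p from 0.000573 to 0.00878.

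Nr1i3, which encodes CAR, was the second. Its fasted values were 89.5, 152, and 111 RPKM in Lpin1+/+ and 53.6, 35.1, and 48.6 RPKM in Lpin1-/- liver. Every wild-type library was above every knockout library, and the difference was -1.33 ± 0.35 (log2, SE; adjusted p = 0.0231 by limma). It passed in 13 of 18 alternatives. Beside rescaling, it did not pass with no filter on low values (adjusted p = 0.0653), without fasted Lpin1+/+ replicate 2 (0.0645) or 3 (0.0692), or without fasted Lpin1-/- replicate 2 (0.0819). Nr1h3, which encodes LXRα, was at 68.6, 102, and 95.8 RPKM in fasted Lpin1+/+ and 57.7, 42.8, and 44.6 RPKM in fasted Lpin1-/- liver. These groups also did not overlap, although by a small gap, and the difference was -0.86 ± 0.25 (log2, SE; adjusted p = 0.0364 by limma). It no longer passed when fasted Lpin1+/+ replicate 3 was left out (adjusted p = 0.122), nor in 10 of its 18 alternatives, over which adjusted p ran from 0.0165 to 0.177.

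Pparg, the PPAR of adipose tissue that is expressed at a low level in normal liver, was at 3.47, 3.10, and 5.09 RPKM in fasted Lpin1+/+ and 1.64, 1.75, and 1.75 RPKM in fasted Lpin1-/- liver. The 3 knockout values lay close together and below all wild-type values. The difference was -0.83 ± 0.20 (log2, SE; adjusted p = 0.0157 by limma), and it passed in 15 of 17 alternatives. It did not pass without fasted Lpin1+/+ replicate 3 (adjusted p = 0.0781) or with only the compared libraries fitted (0.0731). Adipocyte markers were near 0 in every library, with a sum of at most 0.321 RPKM.

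Ppargc1b, the PGC-1β coactivator gene, was the only one of the 10 that passed as higher. It was at 1.995, 0.452, and 0.662 RPKM in fasted Lpin1+/+ and 1.84, 4.60, and 5.76 RPKM in fasted Lpin1-/- liver. The first wild-type library lay above the first knockout library, so the groups overlapped. The difference was 1.30 ± 0.33 (log2, SE; adjusted p = 0.02 by limma) and 1.61 (adjusted p = 0.00865) without fasted Lpin1+/+ replicate 1. It passed in 11 of 17 alternatives. It did not pass without fasted Lpin1+/+ replicate 2 (adjusted p = 0.0569) or 3 (0.0827), without fasted Lpin1-/- replicate 2 (0.069) or 3 (0.068), with no filter on low values (0.0599), or with only the compared libraries fitted (0.0803). Ppargc1a, which fasting is known to induce, was at 3.78, 0.389, and 0.461 RPKM in fasted Lpin1+/+ and 3.36, 3.31, and 7.72 RPKM in fasted Lpin1-/- liver. It did not pass with all libraries (1.36 ± 0.48, log2, SE; adjusted p = 0.0726 by limma). It passed, at 1.94 with adjusted p = 0.00994, when fasted Lpin1+/+ replicate 1 was left out. Its other two fasted wild-type libraries lay below every knockout library. The constant of 1 added before the log understates fold changes at these levels.

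The other 4 genes did not pass in fasted liver. Ppara, the fasting receptor itself, was at 36.6, 11.9, and 24.5 RPKM in Lpin1+/+ and 9.15, 16.0, and 9.49 RPKM in Lpin1-/- liver. Its mean was 0.474 times the wild-type mean, but the groups overlapped (-0.93 ± 0.41, log2, SE; adjusted p = 0.136 by limma). Rxra ranged from 25.8 to 110 RPKM and from 11.3 to 47.2 RPKM (-0.88 ± 0.63; adjusted p = 0.358). Esrra lay at 18.2, 18.2, and 20.03 RPKM in Lpin1+/+ and 23.7, 28.8, and 28.6 RPKM in Lpin1-/- liver without overlap (0.50 ± 0.22, log2, SE; adjusted p = 0.137). Ppard, the PPAR found in most tissues, differed by 0.36 ± 0.28 (log2, SE; adjusted p = 0.398). In all, 5 of the 10 genes had groups that did not overlap, where 32.9% of all genes did.

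In refed liver, Esrra was the only gene of the 10 that passed between genotypes. It was at 27.1, 22.8, and 17.7 RPKM in refed Lpin1+/+ and at 37.9, 66.1, and 51.9 RPKM in refed Lpin1-/- liver. All 3 knockout libraries were above all 3 wild-type libraries, with a mean 2.31 times as high and a difference of 1.16 ± 0.22 (log2, SE; adjusted p = 0.012 by limma). Of all genes tested, 6.67% passed in this comparison. Without refed Lpin1-/- replicate 2 or replicate 3, adjusted p was 0.0508 or 0.0531 and 0 of the 10 genes passed. Of all genes, 295 and 242 passed in these refits, against 767. Nr1h4 stood on the other side of the wild type here, at 55.3, 86.1, and 77.3 RPKM against 50.5, 43.6, and 48.8 RPKM. Its refed groups did not overlap, but the difference did not pass (0.58 ± 0.19, log2, SE; adjusted p = 0.096). Pparg was at 2.19, 2.68, and 3.16 RPKM in refed Lpin1-/- against 3.94, 5.75, and 4.73 RPKM in refed Lpin1+/+ liver, again below every wild-type library and again short of the threshold (-0.66 ± 0.20; adjusted p = 0.0769). Nr1h3 had the same order (-0.59 ± 0.25; adjusted p = 0.192), and Ppargc1a the opposite order (0.82 ± 0.48; adjusted p = 0.349). The median over the 10 genes was -0.08, against -0.07 for all genes, and 5 of the 10 had groups that did not overlap, where 33.9% of all genes did.

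Refeeding changed 3 of the 10 genes in Lpin1-/- liver and 0 of the 10 in Lpin1+/+ liver. Of all genes tested, 20.7% passed in Lpin1-/- liver, 17.8% higher and 2.92% lower, and 1.72% passed in Lpin1+/+ liver, 1.52% higher and 0.2% lower. In Lpin1+/+ liver, 0 of the 10 genes had an unadjusted p under 0.05 by limma, and 0 passed under each of the 18 alternatives. The only gene of the 10 whose wild-type groups did not overlap was Nr1h3, which went from 68.6, 102, and 95.8 RPKM fasted to 136, 130, and 108 RPKM refed (0.50 ± 0.25, log2, SE; adjusted p = 0.414), where 18.1% of all genes had no overlap. The median of all genes was 0.19 in Lpin1+/+ and 0.25 in Lpin1-/- liver, and 0.02 and -0.03 after rescaling. Of the genes called in Lpin1-/- liver, 85.9% were higher after refeeding as deposited and 59.2% after rescaling.

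In Lpin1-/- liver, Nr1h4 went from 20.8, 16.5, and 17.9 RPKM fasted to 55.3, 86.1, and 77.3 RPKM refed. This was a rise to 3.96 times the fasted mean (1.91 ± 0.19, log2, SE; adjusted p = 0.00035 by limma), and 1.56 with adjusted p = 0.00145 after rescaling. Esrra rose from 23.7, 28.8, and 28.6 RPKM to 37.9, 66.1, and 51.9 RPKM (0.89 ± 0.22; adjusted p = 0.0158), and did not pass after rescaling (0.53; adjusted p = 0.124). It also did not pass without fasted Lpin1-/- replicate 1 (adjusted p = 0.0583) or without refed Lpin1-/- replicate 2 (0.0746) or replicate 3 (0.0534). Ppargc1b fell from 1.84, 4.60, and 5.76 RPKM to 0.865, 0.545, and 0.443 RPKM. Its refed mean was 0.152 times the fasted mean (-1.56 ± 0.33; adjusted p = 0.00845), and it passed under all 17 alternatives in which it was tested. Nr1i3, at 53.6, 35.1, and 48.6 RPKM fasted and 56.9, 100, and 139 RPKM refed, had no overlap but did not pass (1.02 ± 0.35; adjusted p = 0.0606). Nr1h3 was at 57.7, 42.8, and 44.6 RPKM fasted and 55.3, 105, and 94.2 RPKM refed (0.76 ± 0.25; adjusted p = 0.0545). Both passed when refed Lpin1-/- replicate 1 was left out, with adjusted p of 0.0241 for Nr1i3 and 0.0146 for Nr1h3, which made 5 genes of the 10 past the threshold. Of all genes, 1627 passed in that refit, against 2382. Groups of 5 of the 10 genes did not overlap, where 46.8% of all genes had no overlap.

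The response to refeeding differed between genotypes for 1 of the 10 genes, Nr1h4, and for 1.28% of all genes tested (0.791% higher and 0.487% lower). The refeeding difference of Nr1h4 was -0.12 ± 0.19 in Lpin1+/+ and 1.91 ± 0.19 in Lpin1-/- liver, and the difference of these was 2.04 ± 0.27 (log2, SE; adjusted p = 0.00794 by limma). It was the single gene of the 10 past the threshold under each of the 17 alternatives. Nr1i3 (1.51 ± 0.50; adjusted p = 0.151) and Ppargc1b (-1.37 ± 0.47; adjusted p = 0.163) had interactions of opposite sign that did not pass. The feeding and genotype comparisons share libraries, so their differences are not independent of each other.

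**Figure D2:**
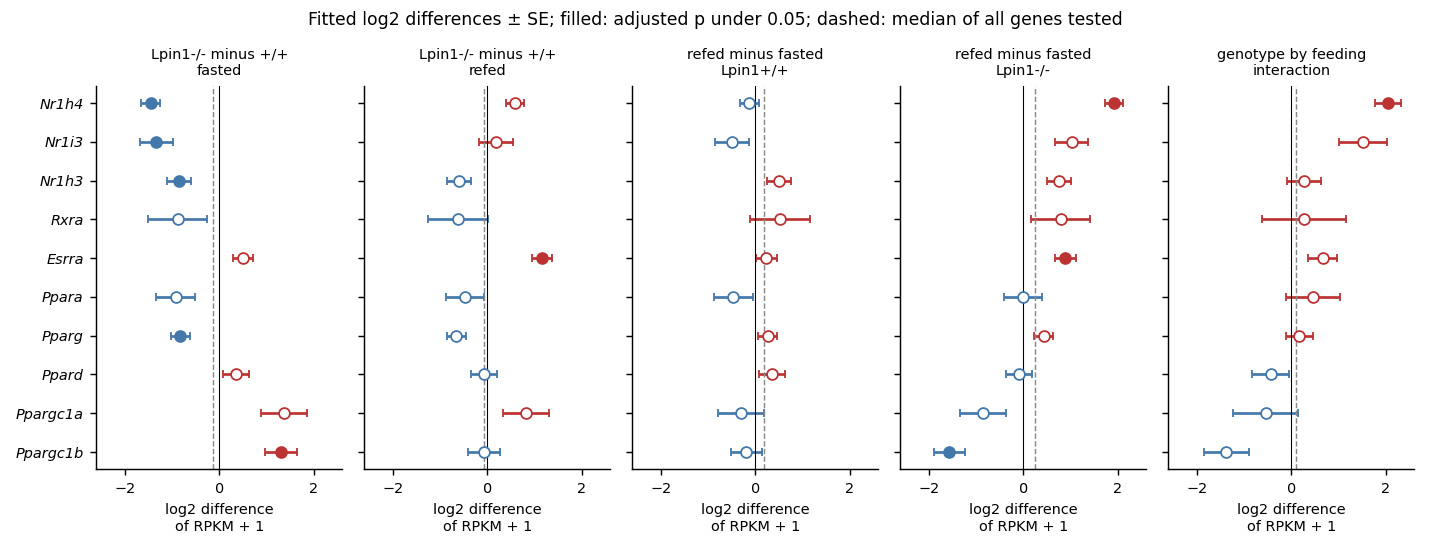
Fitted log2 differences of RPKM + 1 (horizontal axes) with SE for the 10 genes (rows) in the 2 genotype comparisons, the 2 feeding comparisons, and their interaction. Filled symbols passed at an adjusted p under 0.05, and the dashed line is the median of all genes tested. Nr1h4 is filled for genotype in fasted liver (-1.45), for refeeding in Lpin1-/- liver (1.91), and for the interaction (2.04).

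Nr1h4 lies at chr10:89454234-89533585 on the minus strand (GRCm38, GENCODE M21) and has 3 annotated transcripts from 2 start regions. The long transcript, Nr1h4-203, begins at 89533585 and splices its exon 1 to an exon 2 at 89516437-89516571. The 2 short transcripts begin at 89506649 and 89506658. All 3 share the junction from the exon at 89498049-89498417 to the exon that ends at 89483524. The exon tables give counts for both junctions, which were set beside each other after the values were seen. The shared junction had 852, 440, and 690 counts in fasted Lpin1+/+ and 177, 178, and 243 counts in fasted Lpin1-/- liver, and 613, 538, and 695 against 1034, 1426, and 1016 counts in refed liver. It follows the RPKM of the gene in both states. The junction of exons 1 and 2 of the long transcript had 256, 86, and 143 counts in fasted Lpin1+/+ and 22, 28, and 14 counts in fasted Lpin1-/- liver, and 124, 171, and 171 against 71, 138, and 123 counts in refed liver. Unlike the shared junction, it was not above the wild type in refed Lpin1-/- liver. Counts of the long-transcript junction over the shared junction were 0.234 ± 0.0575 in Lpin1+/+ and 0.113 ± 0.0508 in Lpin1-/- fasted liver (SD, n = 3), and 0.255 ± 0.0583 and 0.0955 ± 0.0262 in refed liver. In fasted and in refed liver the groups were apart. The long-transcript junction joins exon 1 directly to exon 2, so transcripts that include an exon between them are not counted. A 120-base exon there had 82, 51, and 84 inclusion counts in fasted Lpin1+/+ and 66, 75, and 21 in fasted Lpin1-/- liver. The ratio is therefore not the share of the long transcript, which was not measured. No test is given, since the pair of junctions was chosen with these values in view.

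**Figure D3:**
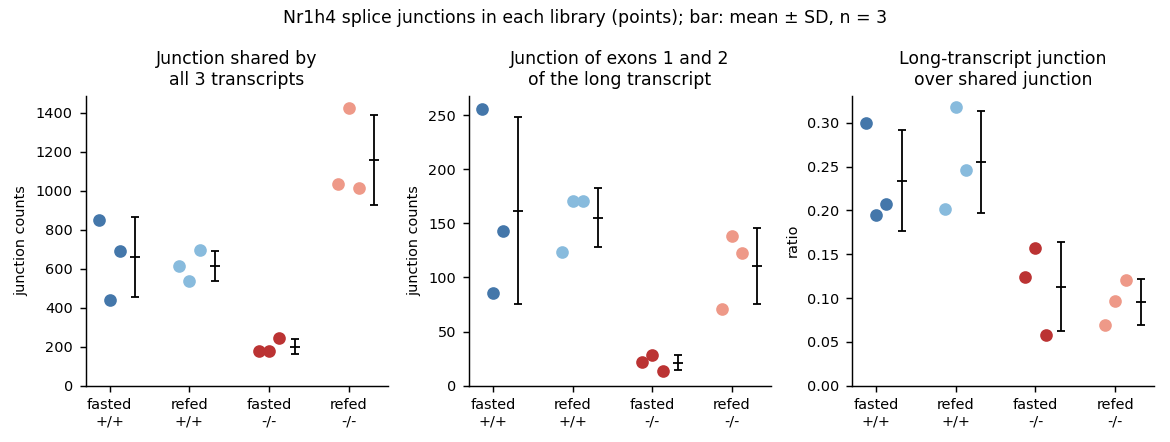
Counts of the Nr1h4 junction that all 3 annotated transcripts share, counts of the junction of exons 1 and 2 of the long transcript, and the ratio of the second to the first (vertical axes, from 0), by group. Points are libraries and bars the mean ± SD of 3. The ratio is at most 0.157 in the 6 Lpin1-/- libraries and at least 0.195 in the 6 Lpin1+/+ libraries. Transcripts that include an exon between exons 1 and 2 are not counted in the second junction.

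The promoter window that RefSeq gives for Nr1h4 belongs to the short transcripts. It covers chr10:89506609-89506908 on the minus strand (GRCm38.p6), from 250 bases before the start site to 50 after it. It is shown beside the window of Nr1i3 at chr1:171213720-171214019 on the plus strand, since these were the genes with the largest decreases in fasted Lpin1-/- liver and since Nr1i3 held the only motif match. Capitals mark an E-box.
Nr1h4: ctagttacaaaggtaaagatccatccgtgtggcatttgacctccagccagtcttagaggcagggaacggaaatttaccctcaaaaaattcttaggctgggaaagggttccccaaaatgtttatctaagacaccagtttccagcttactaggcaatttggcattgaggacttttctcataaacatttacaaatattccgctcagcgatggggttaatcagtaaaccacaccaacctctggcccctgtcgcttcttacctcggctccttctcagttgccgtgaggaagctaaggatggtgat
Nr1i3: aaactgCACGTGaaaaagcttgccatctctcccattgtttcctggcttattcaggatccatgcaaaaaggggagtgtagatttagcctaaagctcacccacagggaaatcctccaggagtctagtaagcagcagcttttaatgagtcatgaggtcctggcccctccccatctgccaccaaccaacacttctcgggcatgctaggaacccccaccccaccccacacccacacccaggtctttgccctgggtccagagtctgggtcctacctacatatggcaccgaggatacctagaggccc
A total of 7 response elements were searched on both strands of the 13 windows that matched 9 of the 10 genes: the nuclear receptor repeats DR1 and DR4, the ERR element (TCAAGGTCA), the cAMP response element (TGACGTCA), the E-box (CACGTG), the FOXO site (GTAAACA), and the D-box (TTATGTAA). The E-box of Nr1i3, 244 bases before its start site, was the only match. Of 32851 mouse promoter windows, 7.15% hold an E-box, 3.65% the FOXO site, 1.79% the cAMP response element, 0.938% the D-box, 0.423% the ERR element, 0.0396% DR1, and 0.0152% DR4.

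Genes most like each changed gene over the 12 libraries were taken as those with the smallest root mean square difference of centered log2(RPKM + 1). They were Kalrn (0.22) and Trappc13 (0.24) for Nr1h4, Gmpr2 (0.14) and Zfp386 (0.17) for Nr1h3, and Cisd3 (0.31) and Slco1b2 (0.33) for Nr1i3. For Pparg, Prelid1 (0.11) is given, for Esrra they were Uck1 (0.18) and Ppif (0.21), and for Ppargc1b Zfp36 (0.26) and Cnksr3 (0.27). The genes' own SDs over the libraries were between 0.47 for Pparg and 0.77 for Nr1h4 and Ppargc1b.

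Known target genes of the receptors were counted from lists written for this purpose. PPARα targets gave the most calls. Of 32 tested, 18 passed as lower and 2 as higher in fasted Lpin1-/- liver, where 13.2% and 5.63% of all genes did. The median difference was -1.24, against -0.14 for all genes. After rescaling, 12 passed as lower and 3 as higher. The same rescaling took lower calls over all genes from 1520 to 1199 and higher calls from 648 to 1059. Fgf21, the fasting hormone, was at 10.8, 31.0, and 43.6 RPKM in fasted Lpin1+/+ and 0.323, 0.687, and 1.24 RPKM in fasted Lpin1-/- liver (in rising order; -3.90 ± 0.59, adjusted p = 0.00155 by limma). Vnn1, a pantetheinase, was at 8.54 to 45.3 RPKM and 0.495 to 0.780 RPKM (-3.70 ± 0.54; adjusted p = 0.00138). The ones that were higher were Pdk4, which restrains glucose oxidation, at 0.898 to 1.98 RPKM and 7.58 to 21.6 RPKM (2.65 ± 0.36; adjusted p = 0.000901), and Plin5, a lipid droplet protein, at 46.3 to 64.3 RPKM and 115 to 292 RPKM (1.70 ± 0.32; adjusted p = 0.00452). These counts stand beside a Ppara transcript whose difference did not pass. In refed liver, 6 of the 32 passed as lower, Vnn1 (-3.90) and Fabp1 (-3.04) with the largest differences, and 1, Plin5, as higher, where 4.07% and 2.6% of all genes did. After refeeding of Lpin1-/- mice, 2 of the 32 passed as lower, Pdk4 (-2.12) and Angptl4 (-2.01), and 0 as higher. Of all genes, 2.92% and 17.8% did.

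FXR targets did not all move with Nr1h4. Of 11 tested, 3 passed as lower and 1 as higher in fasted Lpin1-/- liver, where 13.2% and 5.63% of all genes did. The list median was -0.27 in fasted and -0.87 in refed liver, against -0.14 and -0.07 for all genes. Abcb11, the bile salt export pump, was at 49.3 to 86.8 RPKM in fasted Lpin1+/+ and 18.4 to 31.6 RPKM in fasted Lpin1-/- liver (-1.22 ± 0.29; adjusted p = 0.014 by limma). Abcb4, the phospholipid floppase of bile, was also lower (-1.15 ± 0.25; adjusted p = 0.0101), and Sdc1 was higher (0.97 ± 0.19; adjusted p = 0.00564). Baat, which conjugates bile acids to amino acids, was at 77.1, 77.3, and 116 RPKM in fasted and 164, 233.2, and 251.2 RPKM in refed Lpin1-/- liver, a rise of 1.26 ± 0.22 (adjusted p = 0.00354) that did not pass after rescaling. In refed Lpin1-/- liver, where Nr1h4 was not lower than in the wild type, Nr0b2, which encodes the FXR-induced repressor SHP, was at 18.5 to 34.8 RPKM against 41.5 to 75.4 RPKM (-1.16 ± 0.30; adjusted p = 0.0453). Of the 11 targets, 1 passed as lower and 1, Sdc1 (0.71), as higher in refed liver, where 4.07% and 2.6% of all genes did. The lower ones numbered 2 after rescaling or without fasted Lpin1+/+ replicate 1. Rescaling took lower calls over all genes in refed liver from 468 to 414.

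CAR targets that passed between genotypes were all higher, while over the list 8 differences were positive and 6 negative in each feeding state. Of 14 tested, 3 passed as higher and 0 as lower in fasted Lpin1-/- liver, where 5.63% and 13.2% of all genes did, and 2 passed as higher and 0 as lower in refed Lpin1-/- liver, where 2.6% and 4.07% did. Cyp2b10, the classic CAR-induced enzyme, was at 18.02, 26.0, and 99.7 RPKM in fasted Lpin1+/+ and 112, 397, and 806 RPKM in fasted Lpin1-/- liver (3.15 ± 0.76; adjusted p = 0.0152 by limma). In refed liver it was at 5.37 to 27.1 RPKM and 244 to 268 RPKM (4.30 ± 0.76; adjusted p = 0.00926). Other targets lay lower without overlap but short of the threshold. Cyp2c54, a cytochrome P450 gene, was at 93.6 to 134 RPKM in fasted Lpin1+/+ and 28.0 to 57.9 RPKM in fasted Lpin1-/- liver (-1.65 ± 0.65; adjusted p = 0.103), and Cyp2c37 at 29.9 to 34.6 RPKM and 11.4 to 18.2 RPKM (-1.20 ± 0.45; adjusted p = 0.0852). Ephx1, an epoxide hydrolase gene, was at 235 to 336 RPKM in refed Lpin1+/+ and 120 to 145 RPKM in refed Lpin1-/- liver (-1.11 ± 0.33; adjusted p = 0.07). These 3 were named after their values were seen. Gadd45b, a stress-inducible gene, was at 4.77 to 6.48 RPKM and 102 to 222 RPKM in fasted liver (4.56 ± 0.37; adjusted p = 0.000109). In Lpin1+/+ liver, Cyp3a11 was lower after refeeding (-1.34 ± 0.30; adjusted p = 0.0494), the single target of the lists that passed in that comparison, and it did not pass after rescaling or without fasted Lpin1+/+ replicate 1.

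Targets of LXRα, PPARγ, and the PGC-1 and ERRα axis follow. Of 14 LXR targets, 1 passed as higher in fasted and 1 in refed Lpin1-/- liver, near the 5.63% and 2.6% of all genes that did. In both states this was Scd1, the stearoyl-CoA desaturase, at 39.2, 50.3, and 177 RPKM in fasted Lpin1+/+ and 311, 468, and 775 RPKM in fasted Lpin1-/- liver (2.76 ± 0.78; adjusted p = 0.0295 by limma). After refeeding of Lpin1-/- mice, 3 of the 14 LXR targets passed as higher, with Abca1 (1.53) and Mlxipl (1.43) the largest. Of these 14, 1 passed as lower, Abcg5 (-0.79). Of all genes, 17.8% passed as higher, near the share of the list, and 2.92% as lower. The list median was -0.07, against 0.25 for all genes. After rescaling, 1 passed as higher and 3 as lower. Over all genes, rescaling took higher calls from 2046 to 1024 and lower calls from 336 to 706. The median of the 9 PPARγ targets tested was 0.91 in fasted and 0.29 in refed liver, against -0.14 and -0.07 for all genes. Of these 9, 2 passed as higher and 0 as lower in fasted Lpin1-/- liver, where 5.63% and 13.2% of all genes did. In refed Lpin1-/- liver, 1 passed as higher, Plin4 (2.52), and 1 as lower, Fabp2 (-2.21), where 2.6% and 4.07% did. The fasted ones were the fatty acid binding protein gene Fabp4, at 10.2 to 17.9 RPKM and 68.5 to 96.1 RPKM (2.65 ± 0.34; adjusted p = 0.000712), and Plin4 (1.45 ± 0.40; adjusted p = 0.0271). Of 20 PGC-1 and ERRα targets, 2 passed as higher and 0 as lower in fasted Lpin1-/- liver, where 5.63% and 13.2% of all genes did. In refed Lpin1-/- liver, 2 passed as higher and 0 as lower, where 2.6% and 4.07% did. Sesn1, a stress-inducible sestrin, was at 1.81 to 4.46 RPKM in fasted Lpin1+/+ and 23.6 to 48.3 RPKM in fasted Lpin1-/- liver (2.97 ± 0.34; adjusted p = 0.000399). Idh3a, a subunit of the citric acid cycle enzyme isocitrate dehydrogenase, was higher in both states, at 19.7 to 20.9 RPKM and 41.9 to 55.8 RPKM fasted and 23.4 to 28.8 RPKM and 83.5 to 97.2 RPKM refed (1.25 ± 0.16 and 1.74 ± 0.16; adjusted p = 0.000733 and 0.000484). The median over the list was 0.04 in fasted and 0.28 in refed liver, against -0.14 and -0.07 for all genes.

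**Figure D4:**
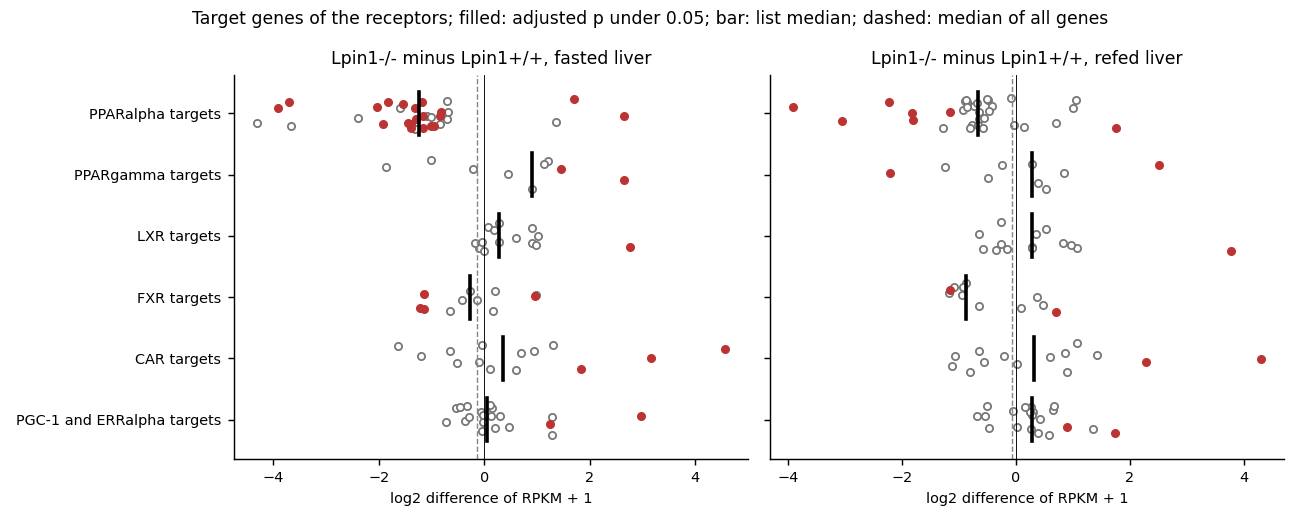
Fitted log2 differences of RPKM + 1 between Lpin1-/- and Lpin1+/+ liver (horizontal axes) for the targets of each receptor or coactivator (rows), in fasted and refed liver. Each point is a gene, filled where it passed at an adjusted p under 0.05, the bar is the median of the list, and the dashed line is the median of all genes. The PPARα row has its median at -1.24 in fasted liver.

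Partners of the 10 genes were counted in the same way. Of 26 other nuclear receptors tested, the lower ones in fasted Lpin1-/- liver included Nr2f2 (COUP-TFII; -1.56 ± 0.30, adjusted p = 0.00529 by limma) and Nr5a2 (LRH-1, a partner of FXR signaling; -1.24 ± 0.36, adjusted p = 0.0357). Refeeding raised Nr5a2 (1.34) and Thrb, the thyroid hormone receptor β gene (1.31), and lowered the clock repressor gene Nr1d1 (-1.18) in Lpin1-/- liver. After rescaling, 1 of the 26 passed as higher and 2 as lower. Higher calls over all genes fell from 2046 to 1024 with this rescaling, and lower calls rose from 336 to 706. Of 21 coregulators, 1 passed as higher and 2 as lower in fasted Lpin1-/- liver, where 5.63% and 13.2% of all genes did. These counts were 2 and 1 without fasted Lpin1+/+ replicate 1 and 2 and 3 after rescaling. Rescaling took higher calls over all genes from 648 to 1059 and lower calls from 1520 to 1199. With all libraries as deposited, the higher coregulator was the arginine methyltransferase gene Prmt1 (0.70 ± 0.22, adjusted p = 0.0418 by limma). The lower coregulators were the acetyltransferase genes Kat2b (-1.40 ± 0.30, adjusted p = 0.00868) and Kat2a (-0.75 ± 0.24, adjusted p = 0.0485). Kat2a rose after refeeding in Lpin1-/- liver (1.05), and Lpin2, a paralog of Lpin1, fell (-1.62).

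Exon skipping events give a second measure of the same 10 genes. For each exon that was skipped in some reads, the tables hold inclusion and skipping counts of every library, and inclusion is given here as a percentage after division by the length of each form. In every event of the 10 genes, the inclusion form was the exon length plus 68 bases, which means that reads inside the exon count as inclusion, also where they come from unspliced RNA. In fasted liver, 16 of 112 tested events of the 10 genes differed between genotypes (limma on the log2 ratio of inclusion to skipping, adjusted over 69644 events), where 11.3% of all events did. In refed liver, 1 of 123 did, where 0.97% of all events did. Many events share an exon or a junction and are not independent. The fasted count was between 2 and 9 when a library was left out, and the refed count was 0 each time. All events that passed numbered 3821 to 9479 in those fasted refits, against 7892. In the refed refits they numbered 0 to 15, against 633.

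The direction of these differences followed the annotation. Of the 25 tested fasted events whose exon overlaps no exon of the gene in GENCODE M21, 9 passed, all 9 toward more inclusion in Lpin1-/- liver, where 15.8% of such events of all genes passed. Of the 43 whose exon is annotated, 2 passed, where 9.14% of all genes' events did, and of the 44 whose exon overlaps an annotated one, 5 passed, where 12.7% did, each toward less inclusion. The same split held over all genes: among fasted events that passed, 92.5% of 1685 unannotated exons and 11.3% of 3316 annotated exons were more included in Lpin1-/- liver. The 9 events lay in Ppard, Ppara, Pparg, and Nr1h4. In 3 of the 9, 1 in Ppara and 2 in Nr1h4, the groups overlapped, with 1 knockout library at 0% inclusion in each.

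Ppard had the clearest of these. An exon of 106 bases at chr17:28250851-28250956 had 0 inclusion counts in each fasted Lpin1+/+ library, beside 35, 10, and 11 skipping counts, and was included at 46.2%, 38.7%, and 23.2% in fasted Lpin1-/- liver (adjusted p = 0.000925 by limma). The RPKM of Ppard did not pass in the same comparison. In Ppara, an exon of 87 bases at chr15:85745126-85745212 was included at 1.28%, 0%, and 0.308% in fasted Lpin1+/+ and 13.6%, 3.84%, and 4.51% in fasted Lpin1-/- liver (adjusted p = 0.0139). It was also the single event that passed in refed liver, at 0%, 0.502%, and 0.593% against 4.2%, 4.77%, and 4.41% (adjusted p = 0.0437). Knockout and wild-type libraries were apart in both states. In Pparg, an exon of 105 bases at chr6:115418213-115418317 was included at 1.72%, 0%, and 0% and at 8.95%, 4.98%, and 41.4% (adjusted p = 0.0119). These rest on few counts. Inclusion counts were 2, 0, and 0 in fasted Lpin1+/+ and 2, 2, and 9 in fasted Lpin1-/- liver. Skipping counts were 45, 25, and 40 against 8, 15, and 5.

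In Nr1h4, the exon of 120 bases at chr10:89532496-89532615, between exons 1 and 2 of the long transcript, was included at 10.4%, 17.7%, and 17.5% in fasted Lpin1+/+ and 52.0%, 49.2%, and 35.2% in fasted Lpin1-/- liver (adjusted p = 0.0431 by limma). Its inclusion counts were 82, 51, and 84 against 66, 75, and 21, and its skipping counts were those of the long-transcript junction above. In raw counts, skipping fell further than inclusion. The junction shared by all 3 transcripts also fell, from 852, 440, and 690 to 177, 178, and 243 counts. How much inclusion and skipping each changed relative to the gene's level was not tested. A neighbor of 126 bases at chr10:89517950-89518075 had 2.27%, 0.406%, and 2.16% against 4.56%, 11.1%, and 14.9% in fasted liver (adjusted p = 0.0339). Its inclusion counts were few, at 17, 1, and 9 against 3, 10, and 7. Its skipping counts were the same as for the exon of 120 bases, so the events are not independent. In refed liver the exon of 126 bases was lower in the knockout, at 2.41%, 1.99%, and 3.57% against 8.06%, 7.05%, and 5.24%, and did not pass (adjusted p = 0.294).

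**Figure D5:**
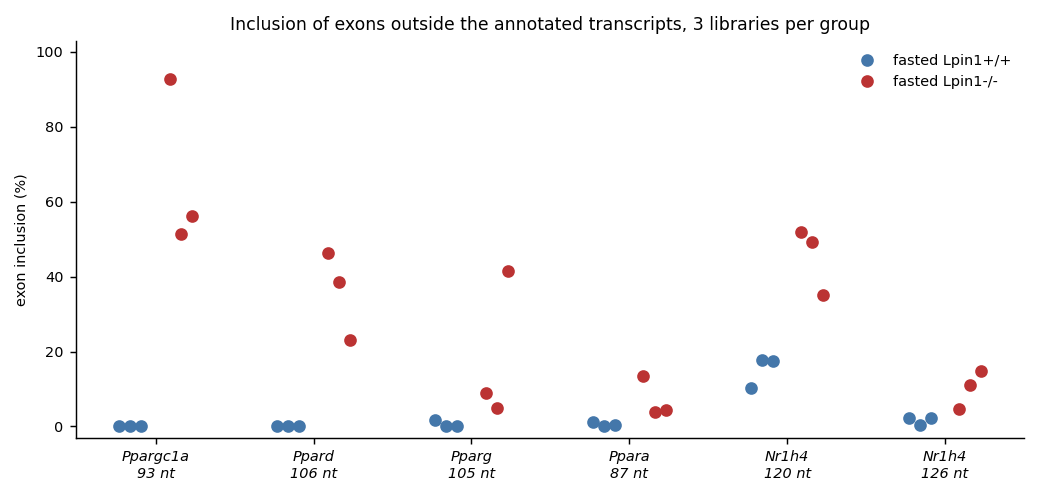
Inclusion (vertical axis, percent) of 6 exons that lie in no annotated transcript of their gene, in 3 fasted Lpin1+/+ and 3 fasted Lpin1-/- libraries (points). The exons were taken among those whose groups do not overlap, which leaves out 3 events that passed. Of exons with the same start, only the longest is drawn, which leaves out a 23-base Ppara exon that also passed. The 93-base Ppargc1a exon, at 0% in the wild type, is at 51.4% or more in the knockout but was not tested.

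Events toward less inclusion were small in size. In Nr1h3, the 4 events that passed share 1 coding exon, at chr2:91190462-91190641 on the minus strand. It was skipped by 5, 6, and 6 counts in fasted Lpin1+/+ and 20, 9, and 27 counts in fasted Lpin1-/- liver, so that inclusion was 99.5% in each wild-type library and 97.0%, 98.4%, and 95.4% in the knockout (adjusted p = 0.0477 by limma). In Rxra, the 3 events that passed share the coding exon at chr2:27754223-27754355. It was skipped by 0 counts in each fasted Lpin1+/+ library and by 0, 18, and 4 counts in fasted Lpin1-/- liver, which leaves the groups overlapping and the difference on 2 libraries (adjusted p = 0.0307). The exons are printed to show which coding parts these are. Of the 2, the Nr1h3 exon keeps the reading frame when skipped, with 180 bases, and the Rxra exon, with 133 bases, does not.
Nr1h3: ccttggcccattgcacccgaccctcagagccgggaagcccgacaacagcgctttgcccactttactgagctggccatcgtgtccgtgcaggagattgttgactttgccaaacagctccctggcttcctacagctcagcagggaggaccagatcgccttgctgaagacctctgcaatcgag
Rxra: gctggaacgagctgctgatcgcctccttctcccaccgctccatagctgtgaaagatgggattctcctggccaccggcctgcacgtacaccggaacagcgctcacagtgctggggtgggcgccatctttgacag

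For Nr1i3, 0 events passed in either state. Its event with the smallest p in fasted liver, at chr1:171214924-171215074, overlaps an annotated exon and was included at 97.6%, 94.4%, and 95.0% in Lpin1+/+ and 83.8%, 86.4%, and 89.2% in Lpin1-/- liver, without overlap (adjusted p = 0.101 by limma). In Ppargc1a, an exon of 93 bases at chr5:51487590-51487682, chosen after its values were seen, had 0 inclusion counts in each fasted Lpin1+/+ library, beside 63, 8, and 12 skipping counts. In fasted Lpin1-/- liver it had 62, 60, and 165 inclusion counts and 2, 24, and 54 skipping counts, which put inclusion at 92.9%, 51.4%, and 56.3%. It was not tested, since 1 wild-type library had fewer than 10 counts. For Ppargc1a, Ppargc1b, and Esrra, 0 tested events passed, and adjusted p of the smallest was 0.0871, 0.34, and 0.67 in fasted liver.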

How the data were processed

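RNA-Seq was measured in 12 mouse liver libraries from 4 groups of 3. The libraries were treated as separate mice, although the labels do not name single animals, so p-values measure the spread between these libraries. Per the study's methods and the submitters' processing notes, the authors aligned paired reads of 69 bases with HISAT2 2.0.5 to GRCm38, counted genes with HTSeq 0.6.0, and deposited RPKM values per library. The notes also name DESeq2 1.20.0. How transcript length was set is not given in the sources used here. The deposited exon tables, made by the authors with rMATS, give whole-number inclusion and skipping counts of each library for every skipped exon. Library totals are not in these tables, so depth is known only as a relative value, and no counting interval is given. RPKM values within a library depend on its most abundant transcripts, and rescaling each library by its median ratio was therefore one of the alternatives.

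From these, log2(RPKM + 1) was fitted with limma 3.58.1 (R 4.3.3, trend, 4 group means in one fit) for the 11507 of 22456 genes whose mean RPKM was 0.5 or higher. Of the 5 comparisons, 4 were between groups and 1 was the genotype by feeding interaction. Fold changes are on this scale and understate changes of low genes. P-values were adjusted by Benjamini-Hochberg over all genes tested, with a threshold of 0.05. For exon events, limma was fitted to the log2 ratio of inclusion to skipping counts, each with 0.5 added and divided by the length of its form, where every library of the state had at least 10 counts. Exons were matched to GENCODE M21. Columns of the authors' own p-values, FDR values, and inclusion differences, tables of rows chosen by them, and a table of enriched terms were not used. The exon tables list 3 libraries in a cell without replicate numbers. Their groups were taken from the comparison each table holds, and the counts of the Lpin1+/+ groups were equal to those in another deposited table for 1523 of 1523 shared fasted and 1719 of 1719 shared refed events. Scripts were tested on simulated data. The 10 genes and all gene lists were chosen with earlier results of these data known. Genes of a list were named as the 2 in each direction and comparison with the largest differences, provided that they passed and that the libraries of both groups lay apart, and events as those past the threshold, with the smallest p, or with the most of the rarer form. The Ppargc1a exon and the pair of Nr1h4 junctions were chosen after their values were seen. Promoter sequences are from RefSeq (GRCm38.p6), and exon sequences from GENCODE M21 transcripts. Deviations of same-numbered libraries from their group means were compared in 18 pairs (r from -0.572 to 0.612, 11 of them over 0.1). Between refed Lpin1+/+ and refed Lpin1-/- liver, all 3 were over 0.1 (0.144, 0.343, and 0.179). The other compared groups each had a pair below it, and the labels give the numbers no meaning, so the numbers were not used as pairs. Some results that the naming rule selects are not reported here.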

Additional observations from a re-analysis of the deposited data

Results flagged for a closer look

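The response to refeeding differed between genotypes, by the interaction term of limma at an adjusted p under 0.05, for Nr1h4 and for 3 genes of the target lists. Nr1h4 had an interaction of 2.04 on the log2 scale (adjusted p = 0.00794). It was near the same level in fasted and refed Lpin1+/+ liver and rose in Lpin1-/- liver. Baat, an FXR target that conjugates bile acids, had an interaction of 1.62 (adjusted p = 0.0334), which did not pass after rescaling by the median ratio. Fabp4, a fatty acid binding protein gene in the PPARγ list, had an interaction of -2.26 (adjusted p = 0.046), which did not pass without fasted Lpin1+/+ replicate 1. Sesn1, a sestrin gene in the PGC-1 and ERRα list, had the largest of these, at -3.47 (adjusted p = 0.00913), with 23.6 to 48.3 RPKM in fasted and 1.75 to 3.13 RPKM in refed Lpin1-/- liver.

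The exon of 93 bases in Ppargc1a lay outside the tested events, because a wild-type library had fewer than 10 counts there. It held 287 inclusion counts over the 3 fasted Lpin1-/- libraries and 0 in the 3 fasted Lpin1+/+ libraries.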

How the results depend on the processing

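Of 870 refits of the 50 differences of the 10 genes, 817 kept their direction and side of the threshold, 29 lost the threshold, 9 passed it, and 15 changed sign. For genotype in fasted liver, 2 of the 10 genes passed with no filter on low values, 2 when only the compared libraries were fitted, and 3 of fewer tested at a mean of 5 RPKM, against 5, and between 1 and 6 when a library was left out (1 without fasted Lpin1+/+ replicate 3, 2 without fasted Lpin1-/- replicate 2). All genes that passed numbered 1914, 1011, and 1563 in the first settings, against 2168. They numbered 1037 without fasted Lpin1+/+ replicate 3 and 1474 without fasted Lpin1-/- replicate 2. For refeeding in Lpin1-/- liver the left-out range was 2 to 5, with 5 without refed Lpin1-/- replicate 1, against 3. Of all genes, 1627 passed in that refit, against 2382. For genotype in refed liver the left-out range was 0 to 1. The count of 0 came without refed Lpin1-/- replicate 2 or 3, where 295 and 242 of all genes passed, against 767. The counts for refeeding in Lpin1+/+ liver (0) and for the interaction (1) were the same in every alternative. With the replicate number as a block, 0, 3, 4, 1, and 1 genes passed for refeeding in Lpin1+/+, refeeding in Lpin1-/-, genotype in fasted liver, genotype in refed liver, and the interaction, and the call lost was Nr1h3 (adjusted p = 0.0565). In the same order, 93, 1991, 1813, 526, and 81 of all genes passed, against 198, 2382, 2168, 767, and 147. Exon events past the threshold numbered 13 at 20 counts, 18 with 1 added, and 2 to 9 with a library left out in fasted liver, against 16. In refed liver they were 2 with 1 added and 0 with each library left out, against 1. Of the events of all genes, 3821 to 9479 passed with a library left out in fasted liver, against 7892. In refed liver, 0 to 15 did, against 633. The causes were not tested.

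Sign changes came only from leaving out a library, in differences that did not pass. Without fasted Lpin1+/+ replicate 1, refeeding in Lpin1+/+ became 0.27 for Ppargc1a (lowest -0.62 with another library left out) and 0.13 for Ppargc1b (lowest -0.40), and the Rxra interaction -0.24 (highest 0.79). That interaction was -0.0013, -0.38, and -0.22 without refed Lpin1+/+ replicate 2, fasted Lpin1-/- replicate 1, and refed Lpin1-/- replicate 1. Refeeding in Lpin1-/- became 0.23, 0.17, and 0.09 for Ppara without fasted replicate 2, refed replicate 2, and refed replicate 3 (lowest -0.27), and 0.059 and 0.02 for Ppard without fasted replicate 2 and refed replicate 3 (lowest -0.27). Genotype in refed liver became 0.037 for Ppard (lowest -0.15), 0.0028 for Ppargc1b (lowest -0.18), and -0.10 for Nr1i3 (highest 0.53) without refed Lpin1-/- replicate 3, and 0.027 for Ppargc1b without refed Lpin1+/+ replicate 3.

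A pair of alternatives for the lists were chosen after seeing the data. Lower PPARα targets in fasted Lpin1-/- liver numbered 12 after rescaling and 18 without fasted Lpin1+/+ replicate 1, and in refed liver 5 and 6. After rescaling, higher genes in fasted Lpin1-/- liver numbered 3 of the LXR and 4 of the PGC-1 and ERRα targets, against 1 and 2. Higher calls over all genes also rose in this comparison, from 648 to 1059, while lower calls fell from 1520 to 1199. Between genotypes in refed liver, rescaling took lower calls over all genes from 468 to 414.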
